A study of Mus musculus with 24 samples.

Results

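DNA methylation was described here at 9 neurotrophic and growth factor genes in the mouse dentate gyrus, namely the ligands Bdnf, Ntf3, Gdnf, Igf1, Vegfa and Fgf2 and the receptors Ntrk2, Ntrk3 and Igf1r. All cytosines of the deposited methylation table that lay inside these genes or within 2000 bases of them were taken, by the GENCODE M21 annotation on the mm10 genome. This gave 763 cytosines of the 762162 cytosines in CpG context that the table held. They stood for 682 CpG positions, since 81 CpGs were read on both strands. The tissue was micro-dissected dentate gyrus of female C57BL/6JRj mice, and each library came from 1 mouse. Young STD mice (n = 5) were 1.5 months old and lived in standard cages. Aged STD mice (n = 7) were 14 months old and lived in standard cages, and Aged ENR mice (n = 7) were 14 months old and had lived for most of their life in environmental enrichment, a large enclosure with tunnels and toys that were moved regularly. All 3 groups were wild-type animals with the same diet, so that age separated the first pair of groups and housing separated the second. Standard cages held fewer mice than the enriched enclosure, and mice that share an enclosure are not tied to each other in the labels. The series describes 24 libraries, and its Young ENR group was not analysed here.

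Neurotrophic factors are secreted proteins that keep neurons alive and shape their synapses. BDNF, the ligand of the receptor tyrosine kinase TrkB (gene Ntrk2), is released with neuronal activity and is known for its part in hippocampal plasticity. Neurotrophin-3 (Ntf3) acts mainly on TrkC (Ntrk3), GDNF signals through the receptor RET with a GFRA co-receptor, and IGF1, VEGFA and FGF2 are growth factors that act on newborn cells of the dentate gyrus, IGF1 through the receptor IGF1R. Cytosine methylation at CpGs is in general low at CpG-rich promoters of genes and high within gene bodies. Bdnf is a special case among these genes, because several alternative first exons, each with its own promoter, are spliced to a shared coding exon.

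Methylation was measured by reduced representation bisulfite sequencing, in which the enzyme MspI cuts at the letters CCGG and only the ends of the fragments are read. Which parts of a gene are measured therefore follows from where CCGG occurs. All 763 cytosines lay within 75 bases of a CCGG, with a median distance of 21 bases. Gdnf was covered best, with 21.9% of its CpGs, followed by Bdnf with 19.2% and Vegfa with 13.7%. Ntf3 had 8.93% of its CpGs measured, Igf1r 2.85%, Fgf2 2.55%, Ntrk2 2.33%, Ntrk3 1.15% and Igf1 0.633%. Of the 52 promoters of the 9 genes, 20 had a measured CpG. Those 20 promoters held a median of 12.5 CCGG sites within 1000 bases of their starts, against 2 in the 32 promoters without a measured CpG. The 5 promoters of Igf1 held between 1 and 4 CCGG sites and none of their CpGs was measured, so that the data hold nothing on the start of this gene. A mouse had values for 450 to 746 of the 763 cytosines, 75 cytosines had a value in all 19 mice, and the median cytosine had a value in 15 mice. The authors' filter set a minimum number of reads per cytosine, but the table gives percentages without read numbers, so the depth behind a single value is unknown above that minimum. Where both strands of a CpG were read, their means differed by a median of 1.34 points and at most 14.7 points.

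The libraries differed in which CpGs they covered. An index of this, the mean that the CpGs measured in a mouse had in the Young STD group, was 30.5% to 32.1% in Young STD mice, 19.5% to 38.0% in Aged STD mice and 23.4% to 36.2% in Aged ENR mice. It was under 25% in Aged STD replicates 3, 4 and 6 and in Aged ENR replicate 4, which were thus weighted towards CpGs of low methylation. Differences of the member gene bodies for age in standard cages and for housing are also given without them, except for Igf1, where none of them had a regional value. Those of other genes named below are given with all mice only. The library numbers in the labels fell into 2 series, beginning with 27 or 37, each of which held mice of all 3 groups.

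The sequences that the results turn on are shown as the RefSeq GRCm38.p6 genome gives them, 5′ to 3′, with the CpGs measured in the table in capitals and everything else in lower case. The first set shows the upstream side or the first intron of 3 Bdnf promoters, which were unmethylated in all groups. Bdnf promoter 5 is shown at chr2:109692775-109693026 and promoter 6 at chr2:109693263-109693562, each ending at the base before its transcription start. Promoter 3 is shown at chr2:109677306-109677605, downstream of its start.
Bdnf promoter 5: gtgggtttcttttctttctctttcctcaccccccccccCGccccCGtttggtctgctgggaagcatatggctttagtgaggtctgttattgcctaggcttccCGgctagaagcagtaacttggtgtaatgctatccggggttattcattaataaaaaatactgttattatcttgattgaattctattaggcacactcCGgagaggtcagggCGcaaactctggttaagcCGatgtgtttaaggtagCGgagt
Bdnf promoter 6: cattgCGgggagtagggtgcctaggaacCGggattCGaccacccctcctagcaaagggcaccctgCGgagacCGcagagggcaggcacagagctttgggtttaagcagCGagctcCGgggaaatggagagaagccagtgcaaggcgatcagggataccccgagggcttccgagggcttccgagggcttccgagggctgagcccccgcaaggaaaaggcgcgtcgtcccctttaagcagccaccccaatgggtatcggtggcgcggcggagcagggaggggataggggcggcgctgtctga
Bdnf promoter 3: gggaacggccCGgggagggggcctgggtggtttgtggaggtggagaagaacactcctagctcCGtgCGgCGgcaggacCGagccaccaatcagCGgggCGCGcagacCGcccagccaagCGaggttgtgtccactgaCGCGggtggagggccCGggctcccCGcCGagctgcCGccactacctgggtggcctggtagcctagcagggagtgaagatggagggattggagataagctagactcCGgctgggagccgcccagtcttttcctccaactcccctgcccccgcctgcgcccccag

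The second set shows 2 intron stretches that were partly methylated within a few kilobases of an unmethylated start. The Ntrk2 stretch was chosen because it holds the CpG with the lowest unadjusted p for age in standard cages, among member CpGs measured in all mice compared. The Gdnf stretch was chosen by its level, since partly methylated cytosines varied most between mice. The Ntrk2 stretch lies at chr13:58812460-58812756 and the Gdnf stretch at chr15:7812035-7812334, both on the plus strand.
Ntrk2 intron: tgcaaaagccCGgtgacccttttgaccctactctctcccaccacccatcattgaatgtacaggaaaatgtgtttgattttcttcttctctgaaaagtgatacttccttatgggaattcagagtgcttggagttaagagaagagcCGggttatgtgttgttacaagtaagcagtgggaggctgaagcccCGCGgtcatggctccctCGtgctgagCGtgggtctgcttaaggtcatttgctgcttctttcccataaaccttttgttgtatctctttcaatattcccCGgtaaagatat
Gdnf intron: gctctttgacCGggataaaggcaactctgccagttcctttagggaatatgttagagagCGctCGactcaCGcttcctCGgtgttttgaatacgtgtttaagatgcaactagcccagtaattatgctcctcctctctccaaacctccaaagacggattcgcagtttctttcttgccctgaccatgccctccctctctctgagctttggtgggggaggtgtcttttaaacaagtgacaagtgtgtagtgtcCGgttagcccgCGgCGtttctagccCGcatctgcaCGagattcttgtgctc

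Promoters of the 9 genes were almost free of methylation and their gene bodies were not. The 401 cytosines in promoters had a mean of 1.81%, and 98.3% of them were under 10%, against 87.4% of promoter cytosines in the whole table. The 280 cytosines in introns had a mean of 31.2%, lower than the 51.3% of all introns, and the 56 cytosines in exons outside promoters a mean of 55.1%, against 45.6% in all such exons. Spread between mice followed the level. The median SD over mice was 2.90 points for the 547 cytosines under 10%, 28.3 points for the 176 cytosines between 10% and 90%, and 10.2 points for the 40 cytosines over 90%. Differences of a given size were thus far easier to see at a promoter than at a partly methylated intron.

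**Figure D1:**
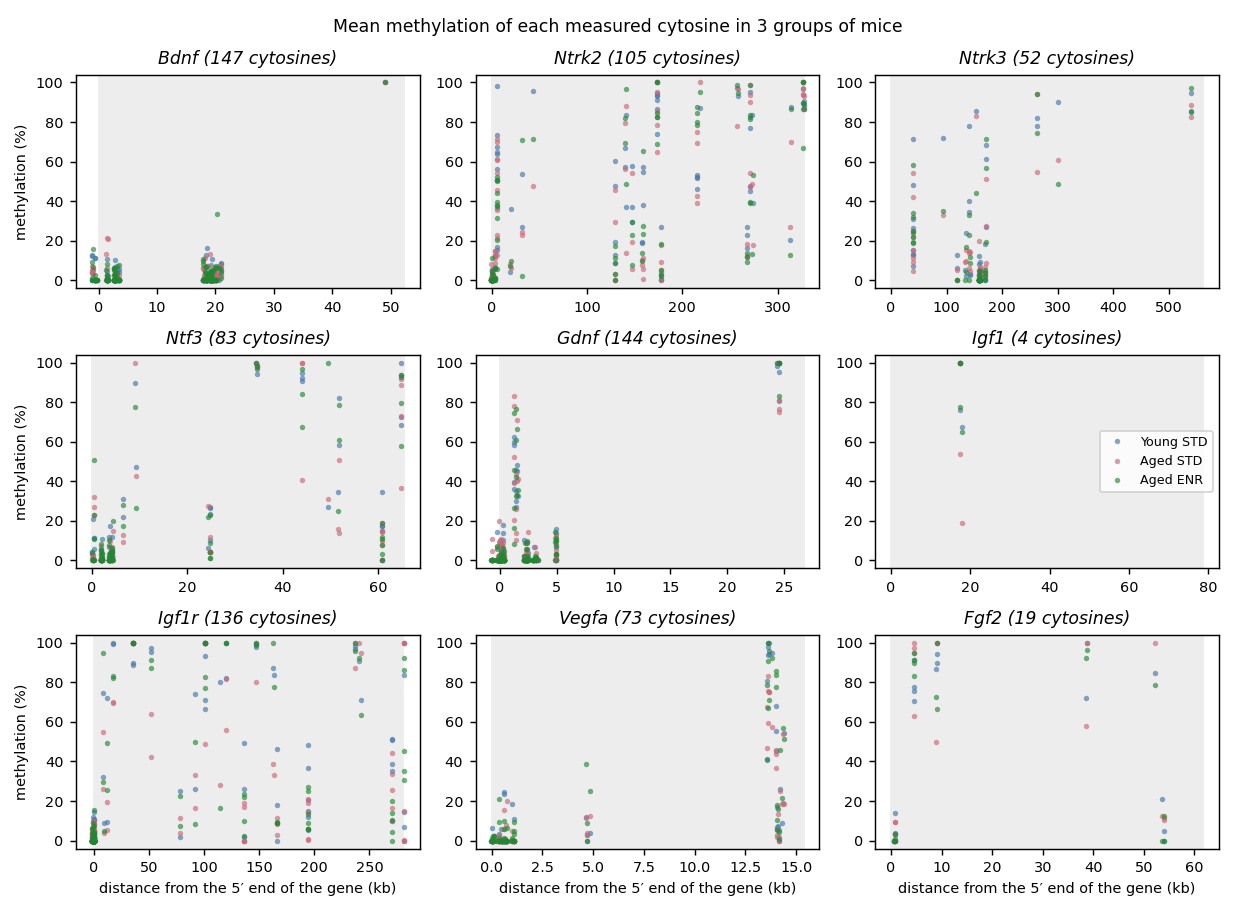
Methylation of each measured cytosine along the 9 genes. The x axis is the distance from the 5′ end of the gene in kilobases (grey bar: the gene), the y axis the group mean in percent, and the colours are the groups Young STD, Aged STD and Aged ENR. Nearly all Bdnf cytosines lie at the bottom of the panel, and a coding CpG lies at 100%, whereas Ntrk2, Igf1r and Ntf3 span the whole scale in their introns.

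For each promoter (CpGs within 1000 bases of a start, starts up to 250 bases apart joined) and each gene body (CpGs inside the gene outside the promoters), a regional value was computed per mouse from at least 3 CpGs. It is the mean deviation of the mouse's CpGs from their means over all mice, added to the mean level of the region. This is meant to lessen shifts from which CpGs a mouse covered but need not remove them. The value may fall slightly below 0 or above 100. Of the 29 promoters and gene bodies with a measured CpG, 28 could be compared. The levels placed the genes apart. The 7 measured Bdnf promoters had levels from 1.07% to 2.50%, where the median of 25380 promoters in the genome was 1.78%. Gene bodies ranged from 12.0% for Bdnf and 15.1% for Gdnf over 24.5% for Ntf3, 30.9% for Ntrk3, 40.9% for Vegfa, 46.7% for Ntrk2, 49.8% for Igf1r and 67.8% for Fgf2 to 81.2% for Igf1. The median of 13196 gene bodies was 59.6%, and 12.6% of them were lower than that of Bdnf. These levels describe the measured CpGs and not the whole gene.

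The comparisons were 3 in number, Aged STD against Young STD for age in standard cages, Aged ENR against Aged STD for housing in old mice, and Aged ENR against Young STD for age with enrichment. They share mice, the first and second the Aged STD group, the second and the last the Aged ENR group, and the first and the last the Young STD group. With limma on the percent scale and adjustment over all regions of the genome, no member region passed an adjusted p of 0.05 in any comparison. The smallest adjusted p was 0.545, 0.947 and 0.807 in the order above, and in the whole genome the percentage of regions called was 0 in all 3 comparisons. Of the 28 member regions, 1 was lower with an unadjusted p under 0.05 in Aged STD than in Young STD mice (genome 6.2%), and 0 were higher (genome 1.44%). In Aged ENR against Aged STD mice, 1 was lower (genome 1.56%) and 3 were higher (genome 2.68%). In Aged ENR against Young STD mice, 0 were lower (genome 4.47%) and 0 were higher (genome 1.68%). With only mice of an index of 25 or more, 1 was lower and 1 higher in the first comparison (genome 2.92% and 2.42%). The counts were then 0 and 1 in the second (genome 2.45% and 1.52%) and 0 and 0 in the last (genome 3.87% and 1.94%). Under the other fits run, 0 of the 84 member differences reached an adjusted p under 0.05, and the lowest adjusted p was 0.300.

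Single CpGs gave the same picture. No member CpG passed an adjusted p of 0.05 with a difference over 25 points, with 507, 512 and 498 CpGs tested in limma and 0% called in the genome in each comparison. CpGs at which the mice did not vary were not tested. Between Aged STD and Young STD mice, 18 member CpGs were lower with an unadjusted p under 0.05 (genome 3.33%, members 3.55%) and 4 were higher (genome 1.09%, members 0.789%). Between Aged ENR and Aged STD mice, 5 were lower (genome 0.797%, members 0.977%) and 8 were higher (genome 1.45%, members 1.56%). Between Aged ENR and Young STD mice, 19 were lower (genome 2.55%, members 3.82%) and 4 were higher (genome 1.4%, members 0.803%). The balance of lower and higher CpGs changed with the index as a term of the model, to 14 lower and 19 higher in the first comparison (genome 2.11% and 2.57%), 10 and 7 in the second (genome 1.78% and 1.35%) and 10 and 14 in the last (genome 2.27% and 2.35%). With only mice of an index of 25 or more, it was 6 and 5 of 382 CpGs (genome 1.69% and 1.39%), 3 and 2 of 356 (genome 1.33% and 1.11%), and 15 and 2 of 458 (genome 2.16% and 1.41%). Differences over 25 points in Aged STD against Young STD mice were downward at 41 CpGs (genome 7.19%) and upward at 3 (genome 2.17%), and in Aged ENR against Aged STD mice downward at 12 (genome 2.62%) and upward at 32 (genome 4.53%). In Aged ENR against Young STD mice 26 were downward (genome 5.21%) and 18 upward (genome 2.39%). The median difference over member CpGs was -0.63, 0.37 and -0.38 points in the 3 comparisons, beside -0.56, 0.32 and -0.30 points over all CpGs tested.

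**Figure D2:**
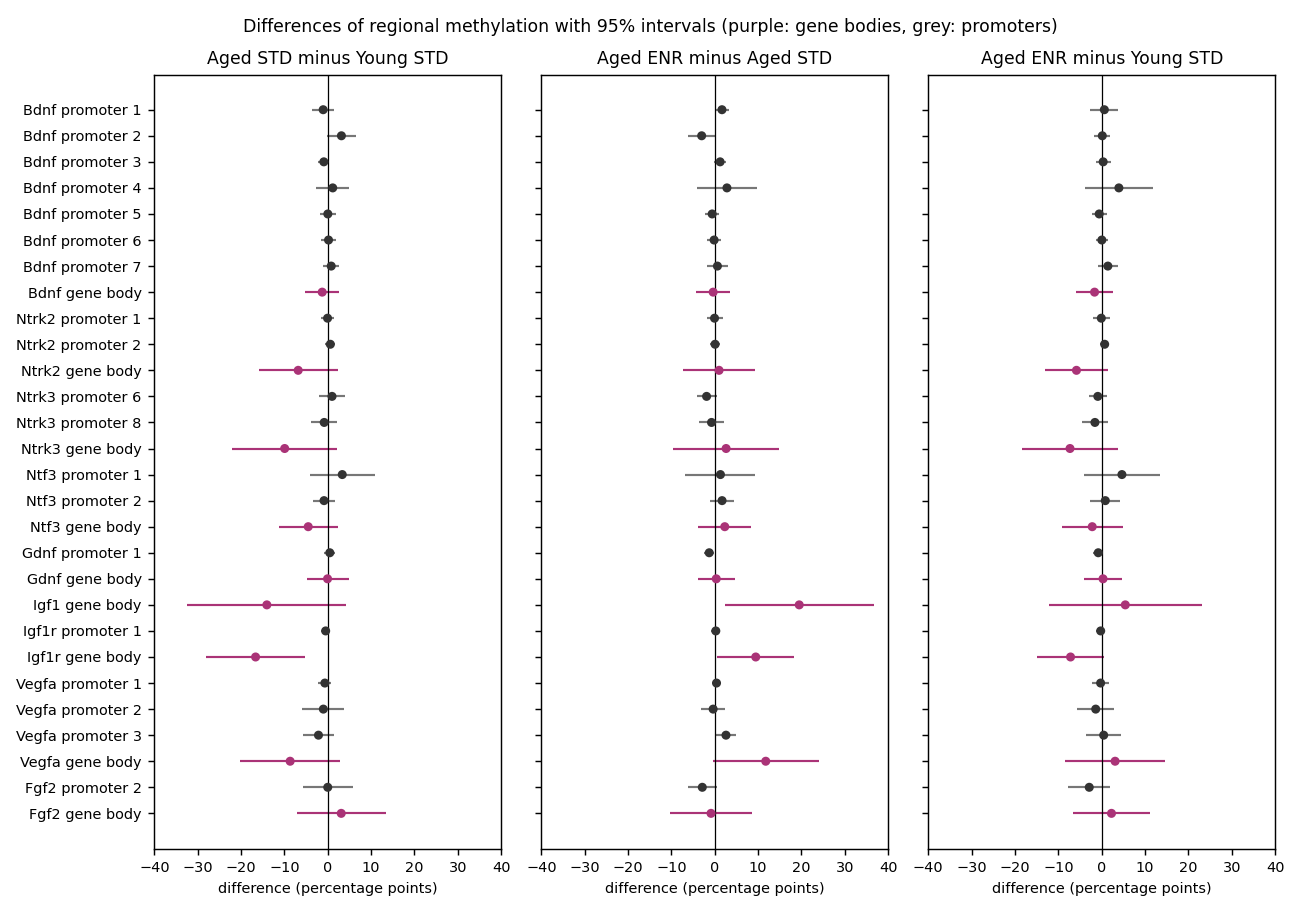
Differences of regional methylation for the 28 member regions in the 3 comparisons. The x axis is the difference in percentage points (first group minus second), points are estimates and bars 95% intervals from limma, with gene bodies in purple and promoters in grey. Intervals of promoters are mostly a few points wide and include 0 except at Gdnf promoter 1 and Vegfa promoter 3 in Aged ENR against Aged STD mice, while those of most gene bodies are wider, and the Igf1r gene body lies left of 0 in Aged STD against Young STD mice.

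The Bdnf promoters were each read apart. Promoter 1, at the most upstream start (chr2:109674700), had 12 measured cytosines. Its value in Young STD mice was -0.68, 1.45, 7.41, 0.67 and 0%, it ran from -0.68% to 2.03% in Aged STD mice with a median of 1.22%, and it was 5.21, 1.63, 1.8, 1.78 and 1.48% in the 5 Aged ENR mice with enough CpGs. The groups overlapped, and Young STD replicate 3 and Aged ENR replicate 1 stood above the rest. The difference of Aged ENR and Aged STD mice was 1.67 points (SE 0.778, 95% interval -0.0148 to 3.35, limma adjusted p = 0.947), and 0.959 points without Aged ENR replicate 1. Aged STD and Young STD mice differed by -1.06 points (95% interval -3.65 to 1.53, limma adjusted p = 0.818), a difference that turned to 0.352 points without Young STD replicate 3.

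Bdnf promoter 2 (start at 109675897, 17 cytosines, in part 5′ UTR) had its highest mean in Aged STD mice. Young STD mice had 1.04, 2.03, 0, 2.25 and 1.01%. Aged STD mice ran from 0.569% to 9.28% with a median of 2.25%, and Aged ENR mice from 0% to 4.18% with a median of 0.106%. In the Aged STD group replicates 2, 4 and 5 had 5.88, 9.28 and 9.13%, above all mice of the other groups, and the other 4 mice lay within the range of the others. The mean was 1.27% ± 0.903 (SD, n = 5), 4.42% ± 3.65 (n = 7) and 1.4% ± 1.78 (n = 7). Aged STD mice were above Young STD mice by 3.15 points (SE 1.56, 95% interval -0.218 to 6.52, limma adjusted p = 0.670) and Aged ENR mice differed from Aged STD mice by -3.02 points (SE 1.44, 95% interval -6.08 to 0.0455, limma adjusted p = 0.947). With mice of an index of 25 or more only, the values were 3.52 and -3.17 points. A CpG of the 5′ UTR at chr2:109676131 had 100% in Aged STD replicate 2 and 0% in all 7 Aged ENR mice, while Young STD mice had 0% to 28.9% and the other Aged STD mice 0% to 20.4%. The regional value of 5.88% in Aged STD replicate 2 came from this CpG alone.

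Bdnf promoter 3 (start at 109677032) was the lowest of the set, with a level of 1.07% over 28 cytosines, and its mice ran from -0.972% to 4.66%. Aged STD mice had a mean of 0.376% ± 0.835 (n = 7), Young STD mice 1.28% ± 1.12 (n = 5) and Aged ENR mice 1.61% ± 1.55 (n = 7). The difference of the 2 aged groups was 1.24 points (95% interval -0.165 to 2.64, limma adjusted p = 0.947), and 0.73 points without Aged ENR replicate 3. Promoter 4 (start at 109692436, 7 cytosines) had a level of 2.50%, set in part by Aged ENR replicate 7 at 20.3% and Aged STD replicate 3 at 9.05%, since the other mice were at most 4.76%. Its Aged ENR against Aged STD difference was 2.81 points and became -0.339 points without the former mouse.

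Bdnf promoters 5, 6 and 7 form a CpG-rich cluster within about a promoter's width of each other, shown above in sequence for the upstream sides of 5 and 6. Promoter 5 (start at 109693027, 19 cytosines) had 2.16% ± 1.29 in Young STD, 2.18% ± 1.52 in Aged STD and 1.58% ± 1.38 in Aged ENR mice. Promoter 6 (start at 109693563, 26 cytosines) had 1.39% ± 0.853, 1.57% ± 1.56 and 1.42% ± 1.13 in the same order. For both, the group means lay within the spread between mice. The 95% intervals for age in standard cages were -1.79 to 1.82 points at promoter 5 and -1.47 to 1.83 points at promoter 6, and those for housing -2.24 to 1.05 and -1.69 to 1.39 points, so that a change of a few points would have lain outside them. Promoter 7 (starts at 109694409 to 109694469, 24 cytosines) had 1.15% ± 0.878, 1.94% ± 1.75 and 2.56% ± 2.49, with Aged ENR replicate 3 highest at 7.40%. Its difference was 0.798 points for age (95% interval -1 to 2.6) and 0.619 points for housing (95% interval -1.71 to 2.95). The first was 0.344 points without Aged STD replicate 5, and the second changed sign to -0.187 points without Aged ENR replicate 3. Promoter 8 (start at 109709383) held 0 CCGG sites and had no measured CpG.

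**Figure D3:**
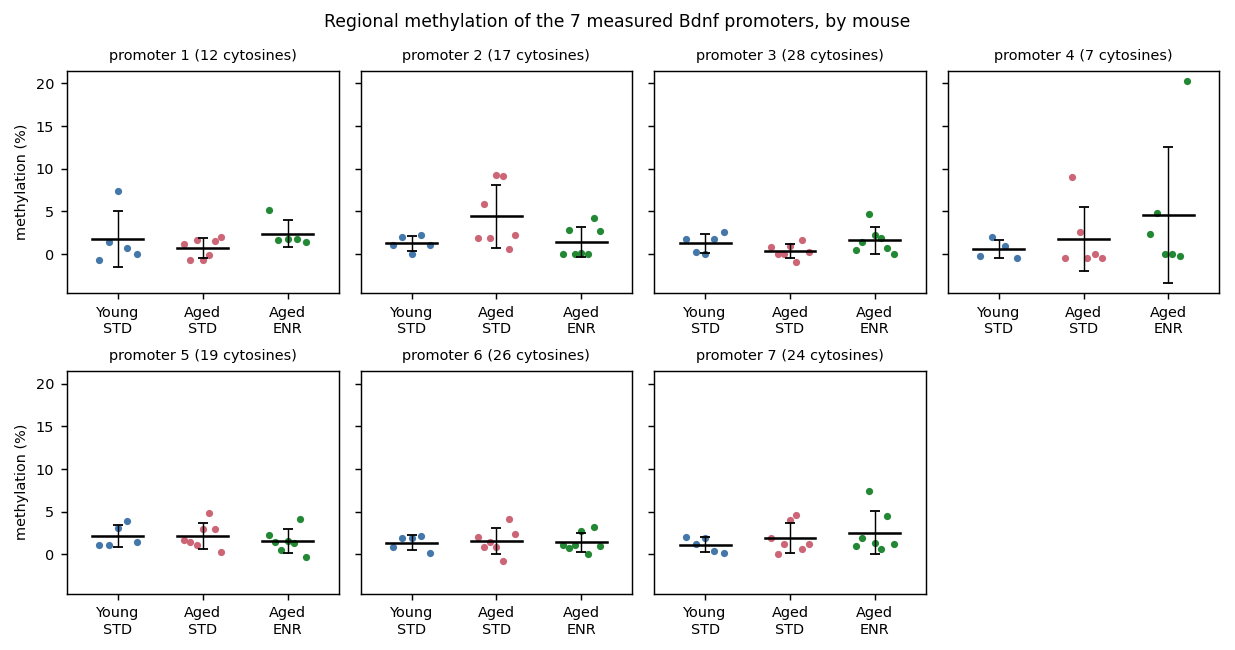
Regional methylation of the 7 measured Bdnf promoters by group. The y axis is the regional value in percent, each point is a mouse, the bar is the group mean and the error bar the SD. Most mice lie under 5% at every promoter, and the exceptions are single mice such as Aged ENR replicate 7 at promoter 4 and 3 Aged STD mice at promoter 2.

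Away from its promoters, Bdnf had 10 measured CpGs in its gene body. The group means were 13.1% ± 1.43 in Young STD, 11.8% ± 1.77 in Aged STD and 11.4% ± 3.13 in Aged ENR mice, and the groups overlapped. The difference was -1.28 points for age and -0.367 points for housing. The latter ran from -1.13 to 0.339 points when 1 mouse was left out at a time. Without the mice of low index the differences were -0.135 and -0.811 points. With the plain mean of the CpGs measured in each mouse they were -10.2 and 1.38 points. This level rests on a CpG in the shared coding exon at chr2:109723685, which was 100% methylated in all 12 mice that had a value, while the other 9 lay in introns near the promoters and were low. The intron CpG at chr2:109695596 had 5, 5.06, 7.14, 18.7 and 6.29% in Young STD mice and 0% to 9.17% in Aged STD mice with a median of 1.2%. Only Aged STD replicate 5 was above 2.16% in that group. The difference was -6.39 points (95% interval -12.2 to -0.562, limma adjusted p = 0.760). Aged ENR mice ran from 0% to 23.5% there.

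Ntf3, the gene of neurotrophin-3, had 83 measured cytosines. Its promoter 2 (start at chr6:126164960, minus strand) had a level of 1.67%. Its promoter 1 (starts at 126166715 to 126166910) was the most methylated of the promoters that could be compared, at 9.47%, a level that 74.0% of all promoters fell short of. The mice at promoter 1 ran from -1.95% to 13.3% in the Young STD, from 4.67% to 18.5% in the Aged STD and from 0% to 25.5% in the Aged ENR group, which overlap. Aged STD against Young STD gave 3.34 points (95% interval -4.10 to 10.8) and Aged ENR against Aged STD 1.32 points (95% interval -6.76 to 9.40), the first with a limma adjusted p of 0.802 and the second with a larger one. Both values moved with single mice. The first was 1.22 points without Young STD replicate 4, 1.62 points without Aged STD replicate 5 and 5.04 points without Young STD replicate 2. The second was -1.07 points without Aged ENR replicate 7 and 3.18 points without Aged ENR replicate 1, and it was -2.58 points in the first library series and 6.63 points in the second. The gene body had 27% ± 2.79 in Young STD, 22.5% ± 2.37 in Aged STD and 24.8% ± 3.56 in Aged ENR mice, with a difference of -4.50 points for age (95% interval -11.3 to 2.34, limma adjusted p = 0.739) and 2.31 points for housing. These were -3.27 and 1.06 points without the mice of low index.

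Gdnf, whose protein supports dopaminergic and motor neurons, had the densest coverage of the set. Promoter 1 at chr15:7810846, with 72 cytosines, had 1.99, 0.512, 0.883, 1.21 and 2.68% in Young STD mice, 0.514% to 3.50% with a median of 1.95% in Aged STD mice, and -0.117% to 2.11% with a median of 0.388% in Aged ENR mice. Aged ENR mice lay lower on average, and 3 of the 7 lay within the range of the Aged STD mice. The difference was -1.27 points (SE 0.521, 95% interval -2.38 to -0.160, limma adjusted p = 0.947, with an unadjusted p under 0.05), and it was -0.846 points with only mice of an index of 25 or more. Within the gene the level switched over short distances. A stretch of 12 intron cytosines at chr15:7812045-7812397 had CpG means from 24.2% to 73.0%, between a promoter stretch at 1.37% and an intron stretch at 1.32%. Its mice had 42.4% ± 15.9 (Young STD, n = 4), 43.7% ± 9.90 (Aged STD, n = 6) and 41.8% ± 9.66 (Aged ENR, n = 7). The 3′ UTR of Gdnf was at 93.1% over 5 cytosines. The gene body as a whole differed by -0.0485 points with age (95% interval -4.89 to 4.79) and by 0.348 points with housing (95% interval -3.89 to 4.58). Both changed sign without the mice of low index, to 1.37 and -1.03 points.

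Igf1, the gene of insulin-like growth factor 1, was measured at 4 CpGs only, each with a value in 10 to 14 mice, and 10 mice had enough CpGs for a regional value. The Young STD values were 68.5, 84.2, 82.5 and 100%, the Aged STD values 76.2, 75 and 58%, and the Aged ENR values 84.0, 83.7 and 100%. The 3 Aged ENR mice were all above the 3 Aged STD mice, and Young STD mice overlapped both. Of the 28 member regions this was the only 1 whose aged groups did not overlap. The share of such regions in the genome was not counted. The difference of the aged groups was 19.5 points (SE 7.25, 95% interval 2.31 to 36.7, limma adjusted p = 0.947). The difference was 11.9 points with the index as a term of the model and 8.21 points in a fit with the replicate number as a term. In the first library series, which held all 3 Aged ENR mice and 2 of the Aged STD mice, it was 13.6 points.

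Igf1r, the receptor for IGF1 and a receptor tyrosine kinase close to the insulin receptor, had the largest difference of all member regions relative to its error. Its promoter 1 at chr7:67952827 was unmethylated, with a level of 1.15% over 63 cytosines and mice between 0.0933% and 2.23%. Its gene body (50 CpGs) had 58.2, 50.1, 53.4, 68.6 and 62.4% in Young STD mice, 24.6% to 52.2% with a median of 43.8% in Aged STD mice, and 47.9% to 56.7% with a median of 50.3% in Aged ENR mice. The groups of Young STD and Aged STD mice overlapped, since Aged STD replicates 1 and 5, at 52.2% and 52.1%, lay above the lowest young mouse. The 3 lowest Aged STD mice, at 38.7, 24.6 and 36.8%, were the same 3 replicates that had an index under 25. The difference of Aged STD and Young STD mice was -16.6 points (SE 5.24, 95% interval -28.0 to -5.32, limma adjusted p = 0.545, with an unadjusted p under 0.05), and 34 of 46 CpGs were lower. It was -13.8 points in the first library series and -21.3 points in the second. Without the mice of low index it was -10.3 points, and over the CpGs measured in all mice compared it was -7.77 points. The part of this coverage in the result was not tested beyond these values.

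The mean of the Igf1r gene body in Aged ENR mice lay between those of the other groups. The difference from Aged STD mice was 9.46 points (SE 4.19, 95% interval 0.528 to 18.4, limma adjusted p = 0.947, with an unadjusted p under 0.05), with 30 of 42 CpGs higher, and 3.64 points without the mice of low index. The difference from Young STD mice was -7.19 points (95% interval -14.8 to 0.435, limma adjusted p = 0.807), but 1.33 points over the CpGs measured in all mice compared. None of these differences passed the threshold over the genome. The dentate gyrus was sampled as a whole, so a shift in the mixture of its cells and a change within a cell type cannot be told apart in these values.

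A single intron CpG of Igf1r at chr7:68147409 (window chr7:68147378-68147439) is shown with 30 bases on each side, the CpG in capitals, because nearly all Aged STD mice had no methylation there. It was 0% in 6 of the Aged STD mice and 2.56% in replicate 7, and 29.8, 2.50, 13.5, 0 and 30% in Young STD mice.
Igf1r intron 68147409: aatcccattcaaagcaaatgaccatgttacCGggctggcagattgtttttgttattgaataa
The difference was -14.8 points (95% interval -25.8 to -3.83, limma adjusted p = 0.760). Aged ENR mice had 0% to 14.5% with a median of 4.73%. A second intron CpG at chr7:67961390 had 100% in 6 of 7 Aged ENR mice and 65% in replicate 1, against 100, 48.6, 84.1, 79.7 and 60.6% in Young STD mice and 0% to 90.6% in 5 Aged STD mice. A neighbouring CpG at chr7:67961411 ran from 0% to 100% in the same Aged ENR mice.

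Ntrk2, which encodes TrkB, had 105 measured cytosines over more than 300 kilobases. Both measured promoters were unmethylated, at 0.705% and 0.692%, levels that only 7.33% and 6.93% of all promoters were below. The gene body had 48.8, 48.5, 49.6, 57.5 and 52.6% in Young STD mice, 32.4% to 53.2% with a median of 45.8% in Aged STD mice and 38.6% to 52.6% with a median of 45.9% in Aged ENR mice. These ranges overlapped, and the lowest mouse was Aged STD replicate 6 at 32.4%, of low index. The differences were -6.82 points for Aged STD against Young STD (95% interval -15.9 to 2.27, limma adjusted p = 0.711), 0.992 points for Aged ENR against Aged STD (95% interval -7.32 to 9.31) and -5.83 points for Aged ENR against Young STD (95% interval -13.1 to 1.48). Without the mice of low index they were -1.92, -2.9 and -4.82 points in the same order, so that the sign of the second changed. Over the CpGs measured in all mice compared they were -8.98, -0.961 and -11.8 points.

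Inside Ntrk2 the level changed from stretch to stretch. In the intron stretch shown above, 10 cytosines at chr13:58812470-58812746, also within the non-coding gene C630044B11Rik, ranged from 10.8% to 68.3%. Its mice had 55.0% ± 8.29 (Young STD, n = 5), 42.8% ± 20.3 (Aged STD, n = 7) and 36.8% ± 13.5 (Aged ENR, n = 7), and the lowest was Aged STD replicate 3 at 4.64%. The last CpG of that stretch, chr13:58812746, had 75.3, 79.5, 59.8, 78.1 and 74.1% in Young STD mice, 0% to 54.3% in Aged STD mice and 16.8% to 69.6% in Aged ENR mice. No Aged STD mouse reached the lowest Young STD value, and 1 Aged ENR mouse did. Among member CpGs measured in all mice compared, this CpG had the lowest unadjusted p in both comparisons with Young STD mice. It was picked for that reason, so its separation follows from the choice. The share of CpGs without overlap in the genome was not counted. The differences from Young STD were -37.8 points for Aged STD (SE 12.9, 95% interval -65.8 to -9.84, limma adjusted p = 0.760) and -35.7 points for Aged ENR mice (SE 12.3, 95% interval -62.4 to -9.11, limma adjusted p = 0.776). A second stretch, 5 cytosines at chr13:58936201-58936443 in the 3′ UTR of a shorter transcript that ends inside the gene, had 29.4% ± 7.52 (n = 5), 15.2% ± 9.10 (n = 7) and 9.92% ± 12.6 (n = 5) in the 3 groups, whereas the 3′ UTR at the end of the gene had 91.9% ± 7.30, 94.3% ± 5.56 and 89.5% ± 9.13. Stretches were not tested as units.

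Ntrk3, which encodes TrkC, had 14 promoters by annotation, of which only promoters 6 and 8 could be compared, at 1.54% and 1.90%. Their mice reached at most 7.69% and 6.46%. The gene body (32 CpGs) had 37.3% ± 4.62 in Young STD, 27.3% ± 11.3 in Aged STD and 29.9% ± 10 in Aged ENR mice. The lowest values, 13.3, 12.9 and 13.9%, were those of Aged STD replicates 3 and 4 and Aged ENR replicate 4, all of low index. The difference of Aged STD and Young STD mice was -9.94 points (95% interval -22.1 to 2.21, limma adjusted p = 0.700) and that of the aged groups 2.62 points (95% interval -9.62 to 14.9, limma adjusted p = 0.966). Without the mice of low index they were -2.05 and -2.59 points, so that the difference of the aged groups changed its sign.

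Vegfa, an angiogenic factor made by astrocytes and neurons, had 3 measured promoters with levels of 0.538%, 1.70% and 1.95%. Promoter 3 (start at chr17:46031356, minus strand) had -0.561, 9.38, 4.17, -0.561 and 0.336% in Young STD mice, -0.561% to 2.34% with a median of 0.168% in Aged STD mice and 0% to 5.96% with a median of 3.40% in Aged ENR mice. The Young STD mice spanned both aged groups, and the aged groups overlapped. Aged ENR mice were above Aged STD mice by 2.59 points (SE 1.06, 95% interval 0.297 to 4.89, limma adjusted p = 0.947, with an unadjusted p under 0.05). The gene body was measured mainly in the 3′ UTR, where 21 cytosines at chr17:46017986-46018804 ranged from 1.39% to 93.8%. Gene body values were 46.1, 37.1, 38.3, 45.8 and 47.3% in Young STD mice, 15.6% to 46.7% in Aged STD mice and 31.5% to 63.2% in Aged ENR mice. Aged STD replicates 3 and 4, of low index, were the lowest at 15.6% and 27.4%. The difference of the aged groups was 11.8 points (95% interval -0.491 to 24.0, limma adjusted p = 0.947), but 19.7 points in the first library series and 1.23 points in the second. Age in standard cages gave -8.68 points (95% interval -20.1 to 2.79, limma adjusted p = 0.711). Without the mice of low index the difference of the aged groups was 8.46 points and that of age -2.95 points, and over the CpGs measured in all mice compared they were 5.4 and -0.235 points.

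Fgf2, a mitogen for neural precursor cells, was measured at 19 cytosines. Its promoter 2 was at 2.50%, with 6 CpGs, in a place where the antisense gene Fgf2os also lies. Mice ran from 0% to 11.5% in the Young STD, from 0% to 7.94% in the Aged STD and from 0% to 3.28% in the Aged ENR group. Its gene body was among the most methylated, at 65.8% ± 6.11, 68.9% ± 9.25 and 68.1% ± 7.43, and it was the only member gene body that was not lower on average in Aged STD than in Young STD mice, at 3.11 points (95% interval -7.12 to 13.3, limma adjusted p = 0.861). This difference was 5.28 points without the mice of low index, and it ran from 0.583 points without Young STD replicate 5 to 5.54 points without Aged STD replicate 3, with 1.77 and 1.08 points without Aged STD replicates 1 and 4. With the plain mean of the CpGs measured in each mouse its sign turned, to -14.5 points. Housing gave -0.857 points, and -4.41 points without the mice of low index. It ran from -3.29 to 1.17 points when 1 mouse was left out at a time, and it was 12.8 points with the plain mean.

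**Figure D4:**
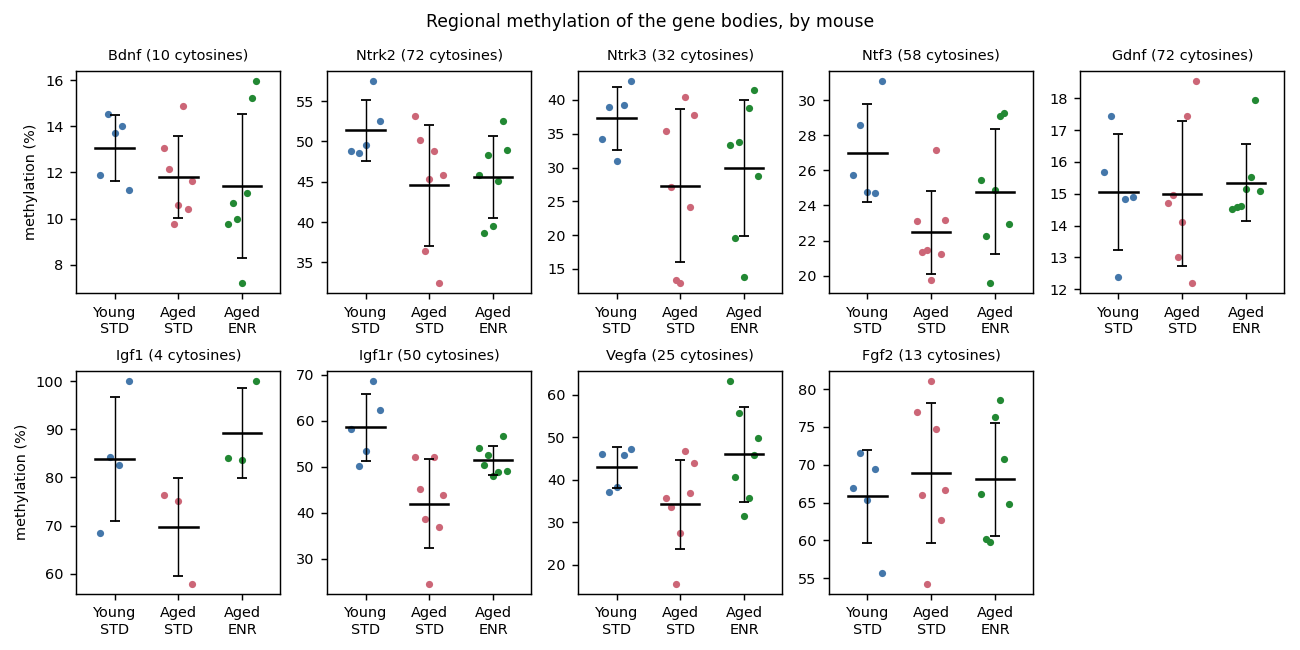
Regional methylation of the gene bodies of the 9 genes by group. The y axis is the regional value in percent, each point is a mouse, the bar is the group mean and the error bar the SD. Bdnf and Gdnf lie near the bottom with narrow spread, and the Igf1r values of Young STD mice lie above most Aged STD mice, which include 3 mice of low index.

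Over the 9 gene bodies together, 8 were lower on average in Aged STD than in Young STD mice, with a median difference of -6.82 points, where 72.0% of the 12612 gene bodies tested in the genome were lower and the median was -3.00 points. In Aged ENR against Aged STD mice 2 of 9 were lower and the median was 2.31 points, beside 37.7% and 1.07 points over all gene bodies. In Aged ENR against Young STD mice 5 of 9 were lower, with medians of -1.65 points for the members and -1.60 points for all gene bodies. The member promoters had medians of -0.00461, 0.0809 and 0.0306 points in the same order. Without the mice of low index, 7 of 9 member gene bodies were lower in Aged STD than in Young STD mice, with a median of -2.05 points, beside 60.5% and -1.06 points over all gene bodies. For Aged ENR against Aged STD mice it was then 5 of 9 and -0.811 points, beside 52.1% and -0.164 points, so that the median of this comparison changed its sign for the members and for the genome. For Aged ENR against Young STD mice it was 5 of 9 and -0.946 points, beside 62.1% and -1.2 points. With the plain mean of the CpGs measured in each mouse, which also moves with the CpGs that a mouse covered, 9, 0 and 7 of the 9 were lower in the 3 comparisons, with medians of -11.8, 6.81 and -4.53 points. Over CpGs measured in all mice compared, it was 6 of 7, 3 of 6 and 4 of 7, with medians of -3.67, 0.111 and -3.37 points. When 1 mouse was left out at a time, 7 of the 27 gene body differences and 26 of the 57 promoter differences changed sign at least once.

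Partly methylated stretches of at least 5 cytosines in the member genes numbered 12, with means over mice of 10% to 90%. The Igf1r stretch at chr7:68223503-68223628 had 39.1% ± 28.3 (Young STD, n = 4), 26.3% ± 12.1 (Aged STD, n = 5) and 10.3% ± 7.89 (Aged ENR, n = 7). The Vegfa 3′ UTR stretch had 49.5% ± 5.03, 38.7% ± 13.8 and 51.6% ± 11.4. These stretches were not picked by a fixed rule and were not tested as units. The 4 Young STD mice of the Igf1r stretch varied widely, with an SD of 28.3 points.

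**Figure D5:**
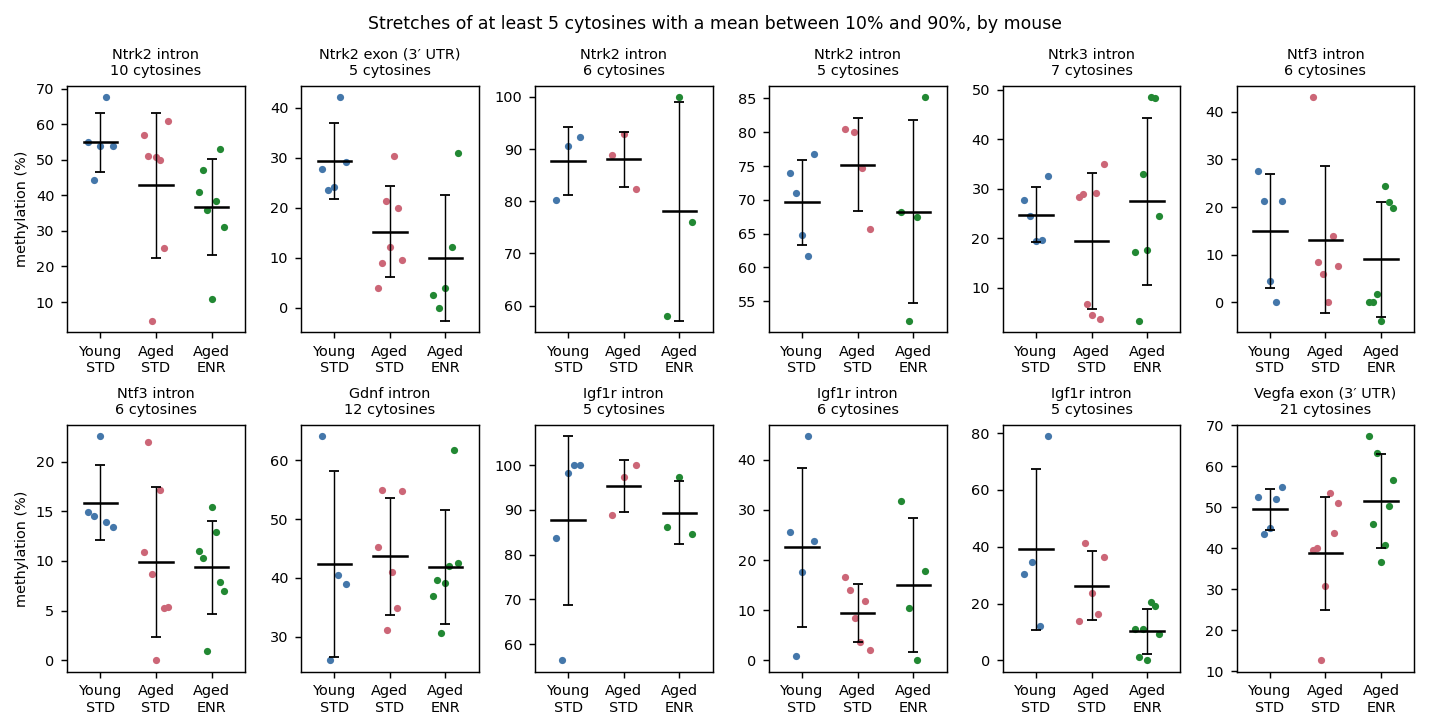
Methylation of the 12 stretches of at least 5 cytosines with a mean of 10% to 90% in the member genes. The y axis is the stretch value in percent, each point is a mouse, the bar is the group mean and the error bar the SD. The Ntrk2 stretches in the intron and in the 3′ UTR of the shorter transcript have their highest mean in Young STD mice, and the Gdnf intron stretch has nearly equal means in the 3 groups. The text describes that Ntrk2 intron stretch because it holds a CpG picked by its unadjusted p.

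Single CpGs were named by a rule: the 3 with the lowest unadjusted p in each direction of each comparison, among the 98, 82 and 99 member CpGs that had a value in all mice compared. Between the aged groups, the highest was the Ntf3 intron CpG at chr6:126115158, with 72.7, 25.5, 100, 0, 65.9, 26.9 and 63.6% in Aged STD mice and 46.6% to 93.7% in Aged ENR mice. Aged STD mice thus covered the whole scale, and Young STD mice had 69.0% to 100%. It is shown on the strand of the gene at chr6:126115127-126115188, with the named CpG in capitals.
Ntf3 intron 126115158: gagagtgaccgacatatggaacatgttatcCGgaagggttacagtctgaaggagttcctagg
The difference of Aged ENR and Aged STD mice was 28.1 points (SE 14.3, 95% interval -2.57 to 58.8, limma adjusted p = 0.769). A second Ntf3 intron CpG at chr6:126162986 was 0% in all 5 Young STD mice, 0% to 3.36% in Aged STD mice and 0% to 14.5% in Aged ENR mice. In the Vegfa 3′ UTR, the CpG at chr17:46018759 had 81.8% to 100% in Young STD mice, 40% to 100% in Aged ENR mice and 0% to 100% in Aged STD mice, with the 2 values of 0% in replicates 3 and 4. The Ntrk2 intron CpG at chr13:58826579 had 16% to 57.7% in Young STD mice, 0% to 20.5% in Aged STD mice and 0% to 45.9% in Aged ENR mice. The Bdnf 5′ UTR CpG at chr2:109676131, described above, differed by -21.3 points between the aged groups (limma adjusted p = 0.769). The remaining CpGs named by the ranking lay in promoters or introns of Bdnf, Gdnf and Igf1r and in the 3′ UTR of Vegfa. Their differences were between -6.12 and 7.63 points, all with limma adjusted p of 0.760 or more.

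The other ligands, receptors and binding proteins of these pathways, 46 genes, were taken as a list, of which 43 had a measured region. No region of this list passed an adjusted p of 0.05. Of 108 regions, 8 were lower and 1 was higher with an unadjusted p under 0.05 in Aged STD against Young STD mice (genome 6.2% and 1.44%), and 0 were lower and 3 higher in Aged ENR against Aged STD mice (genome 1.56% and 2.68%). In Aged ENR against Young STD mice, 5 were lower and 5 higher of 109 (genome 4.47% and 1.68%). The 3 regions with the lowest p for age in standard cages were promoter 1 of Igfbp6, a binding protein of IGF2, with 11.3% ± 4.06 in Young STD and 5.18% ± 2.20 in Aged STD mice (limma adjusted p = 0.510), the gene body of Irs2, an adaptor of the IGF1 and insulin receptors, with 26.3% ± 6.52 and 14.2% ± 8.30 (limma adjusted p = 0.618), and the gene body of Igf2r, a scavenger receptor of IGF2, with 54.9% ± 7.98 and 34.4% ± 18.2 (limma adjusted p = 0.623). In Aged ENR mice these regions had 5.47% ± 3.59, 13.6% ± 5.66 and 38.2% ± 21.4. The gene body of Pgf, a VEGF relative, had 30.5% ± 12.8 (n = 4), 12.7% ± 13.6 (n = 6) and 3.56% ± 5.34 (n = 6) in the groups in the same order, and Aged ENR differed from Young STD mice by -27 points (limma adjusted p = 0.432). In that comparison the Irs2 gene body differed by -12.7 points (limma adjusted p = 0.644). Promoter 1 of Fgfr4, a receptor of FGF ligands, had 0.127% ± 0.435 in Young STD and 2.57% ± 1.76 in Aged ENR mice (limma adjusted p = 0.698). Between the aged groups, the regions named were promoter 2 of Gfra1, the GDNF co-receptor, with 1.48% ± 0.327 in Aged STD and 2.7% ± 1.06 in Aged ENR mice, promoter 1 of Flt4, a VEGF receptor of lymphatic vessels, with 6.39% ± 3.4 and 10.2% ± 1.82, and promoter 1 of Sorcs1, a sorting receptor, with 0.19% ± 0.674 and 1.2% ± 0.956. All 3 had a limma adjusted p of 0.947.

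Expression was not measured in these libraries, and the labelled tissue could not be checked by its markers. Of 19 marker genes of granule neurons, astrocytes, oligodendrocytes, microglia and endothelium, 15 had regions. Of their 33 regions, 3 were lower with an unadjusted p under 0.05 in Aged STD against Young STD mice, those of Aldh1l1, Pecam1 and Prox1 (genome 6.2%), and 1 was higher in Aged ENR against Aged STD mice, that of Neurod1 (genome 2.68%). Between Aged ENR and Young STD mice 1 was lower and 2 were higher (genome 4.47% and 1.68%). The median difference of the marker regions was -3.43, 2.22 and -1.79 points in the 3 comparisons, beside -0.33, 0.21 and -0.18 points over all regions tested. Of the marker regions, 0 passed the adjusted threshold in limma. The part of the cell mixture in the member differences was not tested.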

How the data were processed

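Reduced representation bisulfite sequencing libraries of 19 mice were analysed. By the submitters' processing notes the authors trimmed 75-base single-end reads with Trim Galore 0.4.0 and cutadapt 1.8.1, aligned them to mm10 with Bismark 0.16.1 (the study's methods name later versions of Trim Galore and Bismark) and kept, in methylKit 1.5.2, cytosines above a minimum number of reads, measured in enough mice of each group; they deposited the methylation of each cytosine in percent, without read numbers. The depth per value above that minimum is thus unknown, and no interval for a single value and no coverage minimum could be set.

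Groups were taken from the sample titles. The members and the gene lists were chosen with earlier results of these data known. CpGs and regions with values in at least 3 mice per group were compared with limma 3.58.1 in R 4.3.3 on the percent scale, with a trended prior variance and only the 2 groups compared in the fit, and p-values were adjusted by Benjamini-Hochberg over all CpGs or all regions of the genome. A CpG was called at an adjusted p under 0.05 and over 25 points, a region at an adjusted p under 0.05. The CpGs named in the text were the 3 with the lowest unadjusted p per direction and comparison among member CpGs measured in all mice compared, and the pathway regions the 3 with the lowest p per comparison. CpGs 67961411 and 109723685 were named after their values were seen. Apart from the 2 intron stretches shown in sequence, the stretches given with group means were not picked by a fixed rule. Alternatives were other models, scales, filters and promoter widths, leaving out each mouse, and, chosen after seeing the data, only mice with an index of 25 or more and the plain mean of the measured CpGs. Samples with the same replicate number did not deviate together. Which mice shared a cage or enclosure is not given in the labels, so p-values measure the spread between these mice. By the study's methods, enriched mice lived as a group in an enclosure. The Aged ENR mice may thus have shared the same enclosure, and its effect cannot be told apart from that of housing. Sequences come from the RefSeq GRCm38.p6 genome, where CCGG occurred in 52.8% of 32851 promoter windows of 300 bases. The table's columns of single mice were used and no others.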

Additional observations from a re-analysis of the deposited data

Results flagged for a closer look

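Within a group of 4 to 10 mice, a value stood apart when its gap to the nearest other mouse took up more of the group's range than Dixon's 95% critical value allows. Of 81 groups of regional values tested, 16 held such a value, where chance gives about 1 in 20 groups of normally distributed values, a rate that need not hold near 0%, and the 16 values came from 14 mice. In the Bdnf promoters these were promoter 1 in Young STD replicate 3 at 7.41% and in Aged ENR replicate 1 at 5.21%, and promoter 4 in Aged STD replicate 3 at 9.05% and in Aged ENR replicate 7 at 20.3%. In the receptor promoters they were Ntrk2 promoter 1 in Aged STD replicate 7 at 3.87% and in Aged ENR replicate 3 at 5.11%, Ntrk3 promoter 6 in Aged STD replicate 4 at 7.69% and in Aged ENR replicate 5 at 3.48%, and Ntrk3 promoter 8 in Aged ENR replicate 1 at 5.22%. In the other ligands they were Ntf3 promoter 2 in Young STD replicate 1 at 6.25% and in Aged STD replicate 4 at 4.86%, the Gdnf gene body in Aged ENR replicate 6 at 17.9%, Vegfa promoter 1 in Aged STD replicate 2 at 1.25%, promoter 2 in Young STD replicate 5 at 11.8% and promoter 3 in Aged STD replicate 6 at 2.34%, and Fgf2 promoter 2 in Aged ENR replicate 2 at 3.28%. All of them were the highest of their group, and 15 of the 16 lay in promoters with a level near 0. Mice with an index under 25 gave 4 of the 16 values.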

How the results depend on the processing

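With all groups in the fit, 34 CpGs of the genome were called in Aged STD against Young STD and 39 in Aged ENR against Young STD mice, and 2 and 1 regions. With no trend in the prior variance, 113, 19 and 81 CpGs were called in the 3 comparisons. No member CpG was called in any of these fits. Leaving out 1 mouse at a time gave 0 to 3 regions of the genome in Aged STD against Young STD mice, 3 of them without Young STD replicate 4, and 0 CpGs or regions elsewhere. The share of member CpGs with an unadjusted p under 0.05, 4.34%, 2.54% and 4.62% in the same order, ran from 3.67% to 6.36%, 1.64% to 3.48% and 3.32% to 5.83% over the mice left out, the lowest of the second without Aged STD replicate 4. It was 1.61%, 1.10% and 2.11% with the replicate block (genome 2.18%, 1.45% and 2.35%), 2.88% and 1.4% in the first 2 with mice of an index of 25 or more only (genome 3.08% and 2.45%), 3.87% in the second with all groups in the fit (genome 3.07%), and 0% in the second over CpGs measured in all mice (genome 2%). Beside the shares first named, the genome had 4.42%, 2.24% and 3.95%. The replicate block was run although pairs of the same number had a correlation over 0.1 in 1 of 5, 0 of 5 and 0 of 7 cases, so the numbers were not taken as pairs, and it gave no member region an adjusted p under 0.05. Of 1923 regional differences under alternatives, 163 had another sign than the reported value, 6 of them on the logit scale, and 23 of the 1839 on the percent scale moved by over 1 SD. The number of mice and the unknown depth limit what could be seen, since partly methylated CpGs had a median SD of 28.3 points between mice.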
